A study of Mus musculus with 12 samples.

Results

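The genes described here are 9 genes that brain endothelial cells use to build the blood-brain barrier, chosen by name: the junction genes *Cldn5*, *Cldn12*, *Ocln*, *Tjp1*, *Cdh5* and *Pecam1* and the transport genes *Slc2a1*, *Mfsd2a* and *Abcb1a*. All 9 were found among the 41388 genes of the count table, and all 9 had enough counts to be tested in every comparison. Messenger RNA was sequenced from medial prefrontal cortex (PFC) dissected by hand from male Swiss Webster mice aged 10 weeks. The 12 libraries form 3 groups of 4: conventionally raised mice (CON), germ-free mice without a microbiota (GF), and GF mice that were moved to the standard animal unit from postnatal day 21 and so acquired microbes (exGF). The labels name no other treatment of any group. GF mice were kept in gnotobiotic isolators, exGF mice only until postnatal day 21, and CON mice in the standard animal unit. Housing therefore differed along with microbes in both comparisons with GF mice. Every library holds RNA pooled in equal amounts from 2 to 3 mice, and the errors given here are therefore errors among pools, not among single mice. The exGF libraries are named GFR1 to GFR4 after the columns of the table, since these columns could be matched to the group but not to single samples.

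Endothelial cells of brain capillaries are sealed to each other by tight junctions and adherens junctions, have few vesicles and no pores, and move nutrients with dedicated transporters. Claudins and occludin span the membrane at the tight junction and are tied to the actin skeleton by zonula occludens proteins, while VE-cadherin and PECAM-1 hold neighbouring cells together. The barrier is maintained by pericytes, the basement membrane and the endfeet of astrocytes, and by Wnt ligands from the surrounding tissue. Several of the genes are also active outside the endothelium in cortex, among them *Tjp1*, *Cldn12* and *Slc2a1*, so their mRNA in whole tissue is not from vessels alone.

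Promoters, taken as the 250 bases before to 50 bases after a RefSeq gene start on GRCm38.p6, were found for 7 of the 9 genes, with no entry for *Cdh5* and *Pecam1*. Those of *Slc2a1*, *Mfsd2a* and *Cldn5* are printed 5′ to 3′ on the gene's strand because these 3 genes belong to 1 set of positive, though weak, correlations across libraries (r = 0.45 to 0.52 among them, and 0.32 to 0.37 without the 2 farthest libraries of a pair). The windows are chr4:119108495-119108794 (plus strand), chr4:122961139-122961438 (minus strand) and chr16:18776597-18776896 (plus strand). Capitals mark matches, on either strand, to CAGGAA (the core bound by ETS factors, which drive endothelial genes), ACGTG (the core of the hypoxia response element) or ATCAAAG (the TCF/LEF motif of Wnt signalling).
Slc2a1: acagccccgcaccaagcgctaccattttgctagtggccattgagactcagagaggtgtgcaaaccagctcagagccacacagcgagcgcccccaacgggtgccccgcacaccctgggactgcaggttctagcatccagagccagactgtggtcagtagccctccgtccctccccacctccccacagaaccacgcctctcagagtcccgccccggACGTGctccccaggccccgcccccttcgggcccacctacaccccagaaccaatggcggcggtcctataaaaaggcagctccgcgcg
Mfsd2a: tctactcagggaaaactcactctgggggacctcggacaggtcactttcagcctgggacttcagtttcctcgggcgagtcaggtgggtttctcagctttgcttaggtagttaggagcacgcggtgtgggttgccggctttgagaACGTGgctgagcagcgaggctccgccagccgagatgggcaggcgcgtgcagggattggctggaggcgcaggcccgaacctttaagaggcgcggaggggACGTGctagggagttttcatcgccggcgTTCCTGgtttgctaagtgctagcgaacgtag
Cldn5: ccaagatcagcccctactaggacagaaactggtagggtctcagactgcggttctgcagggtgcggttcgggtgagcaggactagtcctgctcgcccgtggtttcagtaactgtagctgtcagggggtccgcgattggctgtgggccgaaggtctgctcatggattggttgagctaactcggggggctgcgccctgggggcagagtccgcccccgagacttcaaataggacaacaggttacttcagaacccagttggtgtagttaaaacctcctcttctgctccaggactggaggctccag
The *Slc2a1* window held 1 match to ACGTG, the *Mfsd2a* window held 2 matches to ACGTG and 1 to CAGGAA (read as TTCCTG), and the *Cldn5* window held none of the 3 motifs. These short motifs are common: of 32851 promoter windows of the same length, 30.6% held CAGGAA, 19.6% held ACGTG and 3.73% held ATCAAAG. No motif overlapped another, and a match describes the letters only.

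Depth was sufficient for all 9 genes. Libraries held 22757169 to 29134760 counts on genes in the CON group, 13280926 to 23465074 in the GF group and 22702599 to 28615407 in the exGF group. *Ocln* had the fewest counts (129 to 256 per library), and *Tjp1* (1275 to 3248) and *Slc2a1* (1491 to 3116) had the most. None of 25 other markers of endothelial cells was at 0 in every library, and their summed level was 734 to 822 CPM (counts scaled to a common library size) in the CON libraries, 763 to 827 in the GF libraries and 772 to 832 in the exGF libraries, so that the groups overlapped in this measure of endothelial RNA. In whole tissue, fewer cells of a type and less RNA per cell cannot be told apart.

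Levels can be set against each other only per length, as FPKM (CPM divided by the exonic length in kilobases). *Slc2a1*, which encodes the glucose transporter GLUT1, had the highest level (30.2 ± 3.56 FPKM, mean ± SD of 12 libraries), followed by *Cldn5*, the main claudin of brain endothelium (26.1 ± 4.33). The ranges of these 2 genes overlapped, and *Slc2a1* was higher in 10 of 12 libraries. *Tjp1*, which encodes the scaffold protein ZO-1 (13.4 ± 1.64), *Mfsd2a*, the transporter of lysophospholipids that carry docosahexaenoic acid (11.5 ± 0.983), and *Cldn12*, a further claudin (10.99 ± 1.75), came next with overlapping ranges. *Abcb1a*, which encodes the efflux pump P-glycoprotein (6.92 ± 0.554), lay below all 3 in every library. *Cdh5*, which encodes VE-cadherin (5.001 ± 0.481), exceeded *Pecam1*, which encodes the adhesion molecule CD31 (3.95 ± 0.242), in 12 of 12 libraries, and *Ocln*, which encodes occludin, was the lowest (2.01 ± 0.400). Across the 12 libraries *Ocln* varied most for its level (coefficient of variation 19.9%) and *Pecam1* least (6.12%).

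**Figure D1:**
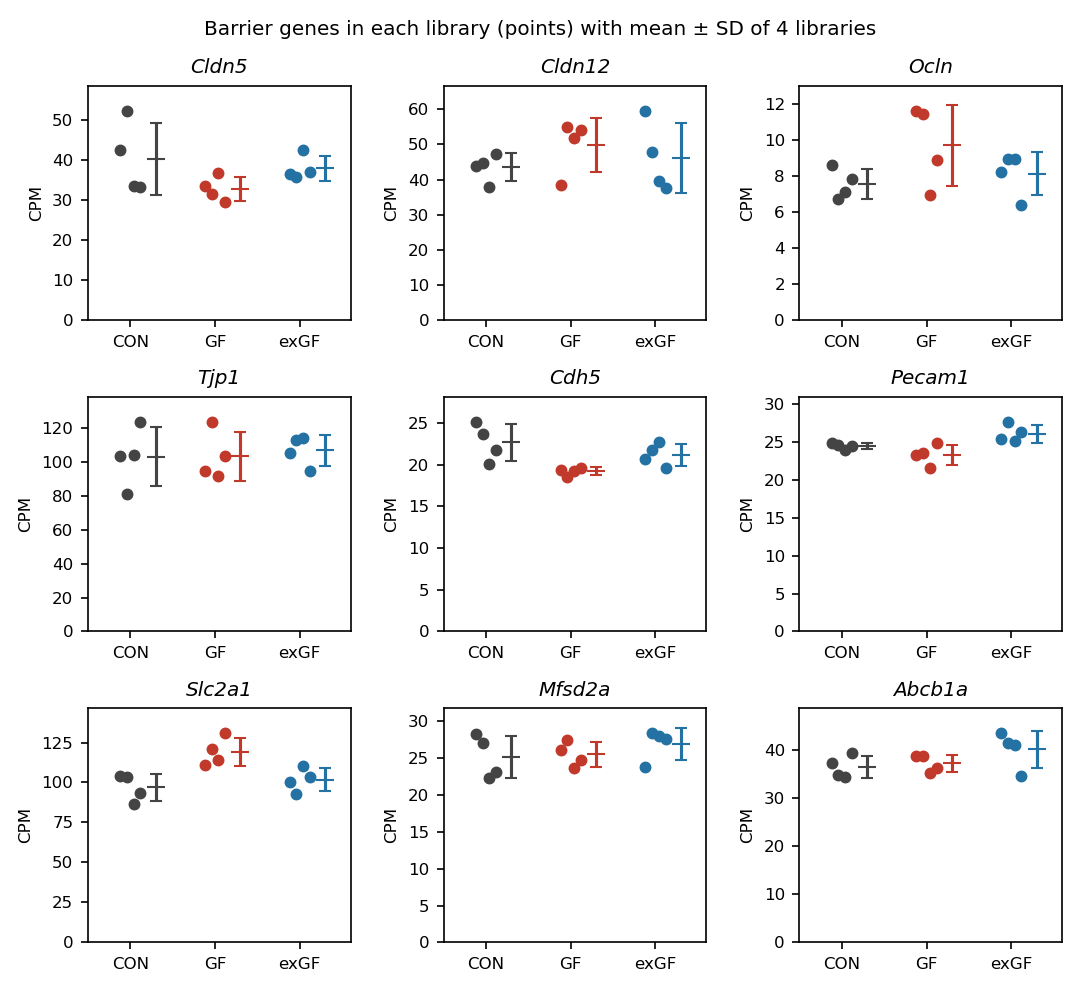
Level of each of the 9 barrier genes in CPM (y axis, from 0) in every library of the CON, GF and exGF groups. Points are libraries and the bars beside them give the mean ± SD of 4 libraries, with *Slc2a1* higher in all 4 GF libraries than in any CON or exGF library and *Cdh5* lower in all 4 GF libraries than in any CON library.

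The first comparison asked which transcripts differ in the PFC of mice that never had a microbiota. None of the 9 barrier genes passed the test in GF relative to CON mice (quasi-likelihood test of edgeR, adjusted by Benjamini and Hochberg's method over 15542 genes, threshold 0.1), where 0.251% of all tested genes did. DESeq2 and limma-voom also called 0 of the 9. At an unadjusted p under 0.05 there were 3 of the 9, against 8.69% of all genes: *Slc2a1* with a higher estimate in GF and *Cdh5* and *Cldn5* with lower ones. The 4 GF and 4 CON libraries did not overlap for 2 of the 9, *Slc2a1* and *Cdh5*, against 5.08% of all genes. The median log2 fold change of the 9 was 0.02 beside 0.01 over all tested genes, with 6 estimates above 0 and 3 below.

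Among the transporters, *Slc2a1* (chr4:119108711-119137983, 12 exonic blocks) measured 104, 103, 86.4 and 93.7 CPM in CON replicates 1 to 4 and 111, 121, 114 and 131 CPM in GF replicates 1 to 4. Every GF library was above every CON library. The estimate was a 1.23-fold level in GF (95% interval 1.08 to 1.40), or 0.30 ± 0.09 on the log2 scale (SE), with an edgeR p of 0.00451 and an adjusted p of 0.291. Leaving out any 1 library kept the estimate between 0.25 and 0.34 and the edgeR p between 0.00314 and 0.0220. With a correction for exon length and GC content, added after the data had been seen, the log2 fold change was 0.35 ± 0.08 (SE) and the adjusted p 0.0904 by edgeR, which made *Slc2a1* the 1 barrier gene called under any setting, and over all settings its adjusted p ran from 0.0904 to 0.603. An antisense gene, *Gm12868*, covers 2.995% of the exonic length of *Slc2a1*, and the counting ignored strand.

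*Mfsd2a* (chr4:122946850-122961188) measured 28.2, 27.005, 22.3 and 23.2 CPM in CON and 26.1, 27.4, 23.6 and 24.8 CPM in GF. All GF libraries lay inside the CON range, and the log2 fold change was 0.02 with a 95% interval of -0.21 to 0.24. *Abcb1a* (chr5:8660077-8748575) measured 37.3, 34.7, 34.3 and 39.3 CPM in CON and 38.8, 38.7, 35.2 and 36.2 CPM in GF, again with overlapping groups. Its log2 fold change was 0.03 with an interval of -0.15 to 0.22. Of the 31-base words of *Abcb1a*, 28.2% also occur in other genes, mostly its paralogue *Abcb1b*. A gene on the opposite strand, absent from the count table, overlaps 10.1% of its exonic length, and the counting ignored strand. The counts of *Abcb1a* are therefore less certain than those of the other 8 genes.

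At the junctions, *Cdh5* (chr8:104101625-104144511) measured 25.1, 23.7, 20.1 and 21.8 CPM in CON and 19.4, 18.5, 19.3 and 19.6 CPM in GF. All GF libraries were below all CON libraries, and the GF libraries lay close together (SD 0.492 CPM against 2.18 in CON). The log2 fold change was -0.24 ± 0.10 (SE) with a 95% interval of -0.45 to -0.03 and an adjusted p of 0.508 by edgeR, and without CON replicate 1 it was -0.19, with an edgeR p of 0.104. *Cldn5* (chr16:18776847-18778262, a single exon) measured 42.5, 52.2, 33.6 and 33.2 CPM in CON and 33.5, 31.6, 36.6 and 29.6 CPM in GF. CON replicates 1 and 2 were higher than any GF library, while CON replicates 3 and 4 lay inside the GF range. The log2 fold change was -0.30 ± 0.14 (SE), with an adjusted p of 0.571 by edgeR. Without CON replicate 2 it was -0.15, with an adjusted p of 0.777.

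*Ocln* (chr13:100496507-100552718) had the widest interval of the 9. It measured 8.62, 6.74, 7.09 and 7.85 CPM in CON and 11.6, 11.5, 6.93 and 8.87 CPM in GF. GF replicates 1, 2 and 4 were above all CON libraries and GF replicate 3 was inside the CON range. The log2 fold change was 0.36 ± 0.17 (SE, 95% interval -0.01 to 0.72), with an adjusted p of 0.587 by edgeR, and it ran from 0.26 without GF replicate 1 to 0.49 without GF replicate 3.

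*Cldn12* (chr5:5489537-5514958) measured 43.9, 44.7, 37.9 and 47.3 CPM in CON and 38.5, 55.0, 51.8 and 54.2 CPM in GF. GF replicate 1 lay inside the CON range and the other GF libraries above it. The estimate was 0.20 ± 0.12 on the log2 scale (SE), with an adjusted p of 0.652 by edgeR. *Pecam1* (chr11:106654217-106750628) had the narrowest CON range of the 9, 23.9 to 24.8 CPM, and measured 23.3, 23.5, 21.6 and 24.8 CPM in GF. Its log2 fold change was -0.07 with a 95% interval of -0.26 to 0.12. *Tjp1* (chr7:65296165-65527781) ranged from 81.0 to 124 CPM in CON and from 91.8 to 124 CPM in GF, and its estimate of 0.00 (interval -0.26 to 0.27) took either sign, depending on the normalization. The claudins and occludin had estimates of both signs in GF mice, *Cldn5* below and *Ocln* and *Cldn12* above 0, none of which passed the test.

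**Figure D2:**
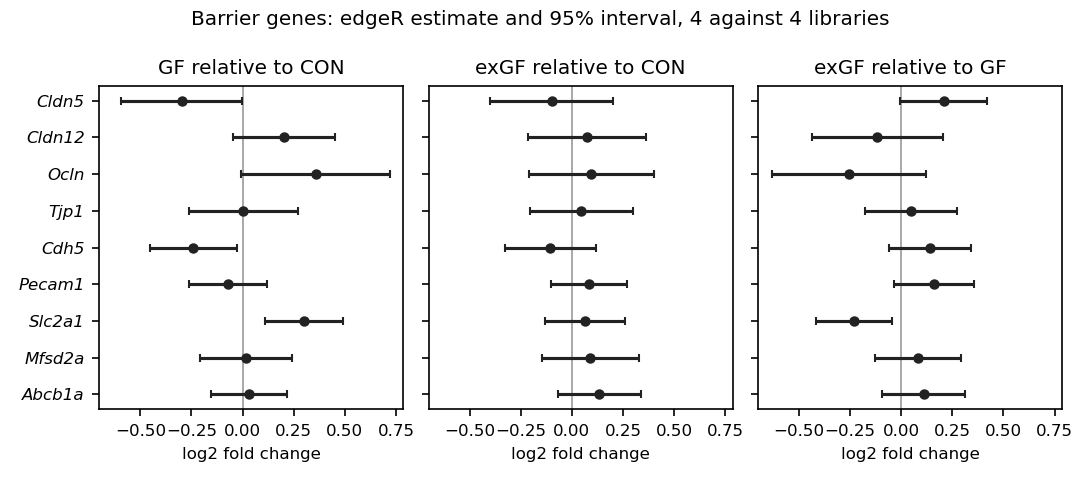
Log2 fold change (x axis) of the 9 barrier genes in the 3 comparisons, as the edgeR estimate (point) and its 95% interval (line) from 4 against 4 libraries. In GF relative to CON the intervals of *Slc2a1*, *Cdh5* and *Cldn5* do not include 0, in exGF relative to CON all 9 include it, and in exGF relative to GF only that of *Slc2a1* does not.

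Markers of 6 other cell types were examined beside these genes in GF relative to CON, where 0.251% of all tested genes were called. Called markers belonged to oligodendrocytes and meningeal fibroblasts. No tested marker of neurons, microglia, choroid plexus or red blood cells was called. Of 8 oligodendrocyte markers, 6 were called and rose in GF, among them *Mbp* and *Mobp*, which encode myelin proteins, and the summed level of the 8 was 2158 to 2657 CPM in CON, 3352 to 5638 in GF mice and 2141 to 3610 in exGF. Of 7 markers of meningeal fibroblasts, cells of the brain's coverings, *Col1a2* (log2 fold change -0.69, adjusted p = 0.0168) and *Slc6a13* (-0.94, adjusted p = 0.0120) fell in GF by edgeR, and the summed level was 168 to 232 CPM in CON, 113 to 148 in GF and 127 to 172 in exGF. The sums of 6 neuronal markers were 6329 to 7219 CPM in CON, 7428 to 8400 in GF and 6984 to 8418 in exGF, and those of 6 microglial markers were 256 to 310, 228 to 255 and 227 to 243. Choroid plexus markers were low throughout, with sums of 3.90 to 15.2 CPM, and markers of red blood cells summed to 116 to 194, 138 to 161 and 74.5 to 155 CPM. No marker of these 6 lists was at 0 in every library, and the part of these cell types in the values of the barrier genes was not tested.

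Each barrier gene was also set against the summed level of the 25 endothelial markers in the same library. The mean log2 ratio of *Slc2a1* to this sum was -3.02 ± 0.06 in CON, -2.72 ± 0.12 in GF and -2.99 ± 0.10 in exGF mice (SD, n = 4 each), with all GF libraries above all CON and exGF libraries. That of *Cdh5* was -5.12 ± 0.07 in CON, -5.36 ± 0.09 in GF mice and -5.25 ± 0.08 in exGF mice, with all GF libraries below all CON libraries. For the other 7 genes the GF and CON libraries overlapped on this scale too. The differences in *Slc2a1* and *Cdh5* were as large against the endothelial sum (0.30 and -0.24) as against the whole library (0.30 and -0.24). The mean endothelial sum was 786.4 CPM in CON and 786.6 CPM in GF mice. The ratio therefore had to give nearly the same differences, and it is not a second check.

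The exGF mice were compared with CON mice to see which transcripts differ after microbes were acquired at weaning. None of the 9 genes passed the test in exGF relative to CON mice, where 0.0696% of 15813 genes did, and none had an unadjusted p under 0.05, against 5.33% of all genes. DESeq2 and limma-voom also called 0. The estimates were small, from -0.11 for *Cdh5* to 0.13 for *Abcb1a* on the log2 scale, with 7 above 0 and 2 below, a median of 0.08 beside -0.01 over all genes, and the lowest adjusted p was 0.963 by edgeR. This comparison and the previous one share the 4 CON libraries.

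*Slc2a1* measured 100.1, 93.0, 110.1 and 104 CPM in GFR1 to GFR4. GFR3 lay above the CON range of 86.4 to 104 and the others inside it. The log2 fold change of *Slc2a1* against CON was 0.06 (95% interval -0.13 to 0.26). *Cdh5* measured 20.6, 21.7, 22.7 and 19.6 CPM, with 3 libraries inside the CON range and GFR4 below it, and its log2 fold change was -0.11 (-0.33 to 0.12), or -0.04 without CON replicate 1, -0.05 without GFR4 and -0.16 without CON replicate 3. *Cldn5* measured 36.5, 35.8, 42.4 and 36.9 CPM, all inside the CON range, with a log2 fold change of -0.10 (-0.40 to 0.20). The intervals of these 3 genes allow differences from CON of up to 1.20-fold higher for *Slc2a1* and of 0.796-fold for *Cdh5* and 0.758-fold for *Cldn5* at the low end.

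*Pecam1* was the 1 gene of the 9 whose exGF and CON libraries did not overlap, against 3.31% of all genes. It measured 25.3, 27.6, 25.1 and 26.3 CPM in GFR1 to GFR4 against 24.8, 24.6, 23.9 and 24.5 CPM in CON. The gap was narrow, and the log2 fold change of 0.08 had a 95% interval of -0.10 to 0.27. *Abcb1a* measured 43.5, 41.4, 41.1 and 34.6 CPM, with 3 of the 4 exGF libraries above all CON libraries, and the estimate was 0.13 ± 0.09 on the log2 scale (SE), with an adjusted p of 0.963 by edgeR. Without GFR4, the lowest of the 4, it was 0.22, with an edgeR p of 0.0385 and an adjusted p of 0.683. The remaining genes, *Ocln*, *Mfsd2a*, *Cldn12* and *Tjp1*, had estimates between 0.05 and 0.09 with intervals on both sides of 0.

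The direct comparison of exGF with GF mice asked which transcripts differ with microbes acquired after weaning, together with the change of housing. No gene of the 15569 tested was called by edgeR, a background of 0%. DESeq2 called 21 genes over the whole table, and DESeq2 and limma-voom called 0 of the 9 barrier genes. At an unadjusted p under 0.05 there was 1 of the 9, *Slc2a1*, against 6.65% of all genes, and the libraries did not overlap for 2 of the 9, *Slc2a1* and *Pecam1*, against 3.32%. The median log2 fold change of the 9 was 0.08 beside -0.00 over all genes. This comparison uses the same GF and exGF libraries as the previous ones.

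*Slc2a1* was lower in all 4 exGF libraries (93.0 to 110.1 CPM) than in any GF library (111 to 131). The gap was narrow, with GFR3 at 110.1 CPM and GF replicate 1 at 110.9 CPM. The log2 fold change was -0.23 ± 0.09 (SE, 95% interval -0.41 to -0.04), with an edgeR p of 0.0189 and an adjusted p of 0.736. Without GF replicate 4 the edgeR p was 0.0761, and without GFR2 it was 0.0561. *Pecam1* was higher in all 4 exGF libraries (25.1 to 27.6 CPM) than in any GF library (21.6 to 24.8), with a log2 fold change of 0.16 ± 0.09 and an adjusted p of 0.756 by edgeR. For *Cldn5* the exGF level was higher than the GF level in 14 of 16 pairs of libraries, and the log2 fold change was 0.21 ± 0.10 (adjusted p = 0.739, edgeR). *Cdh5* was higher in 15 of 16 pairs, with a log2 fold change of 0.14 ± 0.09 (interval -0.06 to 0.34). The estimate of *Ocln* was -0.25 ± 0.18, and it ran from -0.15 without GFR4 to -0.39 without GF replicate 3 (-0.16 without GF replicate 1 or 2). That of *Tjp1* was 0.05 ± 0.10. The mean levels of *Slc2a1*, the gene with the lowest p of the 9 in both comparisons with GF mice, were 96.9 ± 8.48 CPM in CON, 119 ± 8.85 in GF mice and 102 ± 7.14 in exGF mice (SD, n = 4 each).

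The wider set of vascular and barrier genes was examined in 8 lists written from general knowledge, which hold 115 genes beside the 9. Of the 112 that were tested, 0 were called in any of the 3 comparisons, by edgeR under every setting tried, by DESeq2 or by limma-voom. At an unadjusted p under 0.05 there were 12 in GF relative to CON (3 higher and 9 lower), 10 in exGF relative to CON (2 higher and 8 lower) and 7 in exGF relative to GF (6 higher and 1 lower), which is 10.7%, 8.93% and 6.25% of the tested genes against 8.69%, 5.33% and 6.65% of all genes. The lowest adjusted p by edgeR was that of *Vwf*, which encodes von Willebrand factor, in GF relative to CON (0.346) and that of the transporter gene *Slco1a4* in exGF relative to CON (0.523). In exGF relative to GF the lowest value, 0.736, was shared by several of these genes, *Kdr* and *Lama4* among them.

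None of the 13 other junction genes had a p under 0.05 in any comparison, and their median log2 fold change in GF relative to CON was 0.00. *Jam2*, which encodes a junctional adhesion molecule, measured 49.9 ± 4.06 CPM in GF and 44.5 ± 2.82 CPM in CON (SD, n = 4 each). *Lsr*, which encodes a protein of tricellular junctions, was low, at 4.58 ± 0.855 CPM in GF and 4.43 ± 0.658 in CON. The GF and CON libraries of both genes overlapped, with *Jam2* higher in GF in 14 of 16 pairs of libraries (adjusted p = 0.630, edgeR).

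Of 20 other transporters, 2 had a p under 0.05 in GF relative to CON, both with higher estimates. They were *Slco1a4*, an organic anion transporter (0.33 ± 0.13, adjusted p = 0.461, edgeR), and *Tfrc*, which encodes the transferrin receptor (0.33 ± 0.14, adjusted p = 0.496, edgeR). *Slco1c1*, the carrier of thyroxine, had a log2 fold change of 0.01 ± 0.12, and the efflux pump gene *Abcg2* had 0.18 ± 0.12. *Abcb1b*, the paralogue of *Abcb1a*, was low in both groups (1.93 ± 0.368 CPM in GF and 2.06 ± 0.347 in CON). None of the 20 had a p as low as that of *Slc2a1* in GF relative to CON.

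The 25 markers of endothelial identity, 24 of which were tested, had a median of 0.03 in GF relative to CON, with 13 estimates above and 11 below 0. The receptor genes *Flt1*, *Kdr* and *Tek* had log2 fold changes of -0.01 ± 0.08, -0.15 ± 0.12 and 0.08 ± 0.12, and the capillary marker *Ly6c1* 0.07 ± 0.10 (SE). At an edgeR p under 0.05 there was 1 of the 24, *Vwf*, with a lower estimate in GF, against 8.69% of all genes. There were 2 with lower estimates in exGF relative to CON (5.33% of all genes) and 2 with higher ones in exGF relative to GF (6.65%). In exGF relative to GF, *Kdr*, which encodes a receptor of vascular endothelial growth factor, was higher in all 4 exGF libraries (0.28 ± 0.11, adjusted p = 0.736, edgeR). Of 14 genes of barrier Wnt signalling, 1 had a higher and 1 a lower estimate at a p under 0.05 in GF relative to CON, and the receptor gene *Fzd4* had 0.07 ± 0.21. The gene of the fenestral diaphragm *Plvap*, which barrier endothelium does not normally express, measured 14.8 ± 2.14 CPM in GF, 14.9 ± 2.02 in CON and 14.6 ± 2.90 in exGF mice. Of the 11 genes of leakage and activation to which it belongs, 9 were tested, and 1 of these had a p under 0.05 in GF relative to CON, with a lower estimate.

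The support of the vessel wall showed lower estimates in GF mice, none of which passed the test. Over all tested genes, 51.7% had estimates above 0, and 8.69% had an edgeR p under 0.05. All 10 basement membrane genes had estimates below 0 in GF relative to CON (median -0.21 beside 0.01 over all genes, range -0.32 to -0.07). Of these, 3 genes, *Col4a2*, *Lama4* and *Hspg2*, had a p under 0.05 with adjusted p of 0.411 to 0.548 by edgeR. The GF and CON libraries did not overlap for 1 of the 10, against 5.08% of all genes. The summed level of the 10 was 438 to 501 CPM in CON, 395 to 439 in GF and 389 to 477 in exGF, so 1 GF library reached the CON range. Several of these genes are also expressed by meningeal fibroblasts, whose markers were lower in GF mice as given above, and the part of those cells was not tested. Of 14 genes of pericytes and smooth muscle, 11 had estimates below 0 (median -0.14), and the pericyte receptor gene *Pdgfrb* had -0.04 ± 0.10. Of 8 genes of astrocyte endfeet, 6 had estimates below 0 (median -0.14), and 2 of these 6 had an edgeR p under 0.05. GF and CON libraries did not overlap for 1 of the 8. The water channel gene *Aqp4* had 0.14 ± 0.12.

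**Figure D3:**
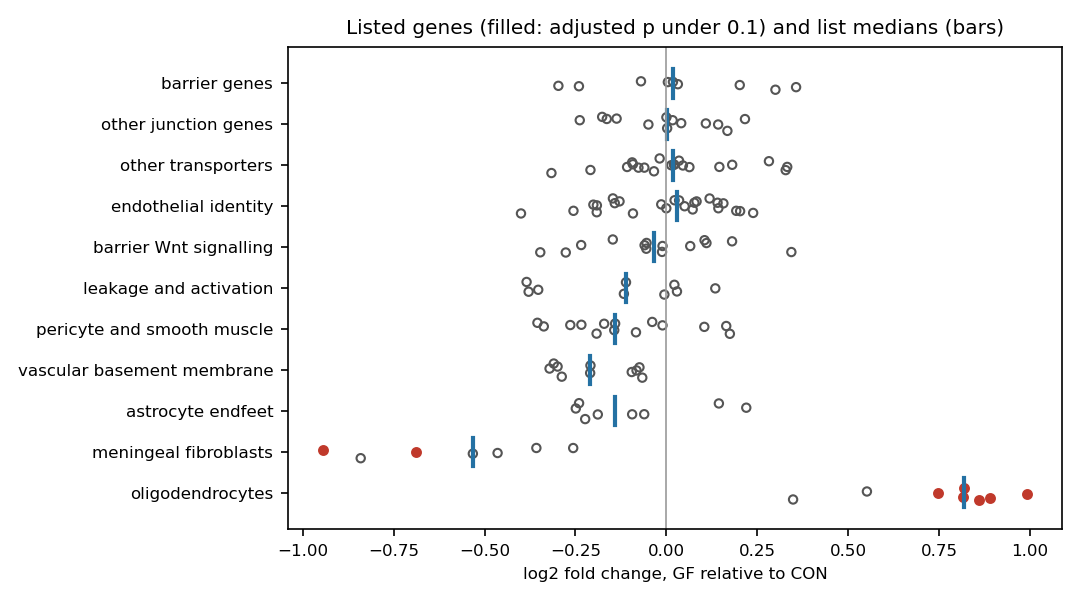
Log2 fold change in GF relative to CON mice (x axis) of every tested gene in the 9 barrier genes, 8 lists of other vascular and barrier genes, and the lists of meningeal fibroblasts and oligodendrocytes (rows). Circles are genes, filled where the adjusted p was under 0.1, and vertical bars are list medians, with filled circles in the last 2 rows and none in the vascular rows.

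*Cldn5* and *Cldn12* were set within the whole claudin family of 24 genes. Of these, 7 passed the filter on low counts in GF and CON mice, and 4 had a mean level above 1 FPKM: *Cldn11* (27.6 ± 8.41 FPKM, SD of 12 libraries), *Cldn5* (26.1 ± 4.33), *Cldn10* (14.7 ± 2.04) and *Cldn12* (10.99 ± 1.75). *Cldn13*, *Cldn18* and *Cldn34a* had no count in any library. The levels of *Cldn11* and *Cldn5* overlapped across libraries. *Cldn11*, the claudin of myelin, was the 1 called claudin: it measured 69.1 ± 11.5 CPM in GF, 41.1 ± 4.93 in CON and 44.9 ± 11.8 in exGF (SD, n = 4 each), with a log2 fold change of 0.75 ± 0.12 in GF relative to CON (adjusted p = 0.0214, edgeR). *Cldn10*, which is expressed by astrocytes, had a log2 fold change of -0.07 ± 0.12, and *Cldn1*, *Cldn19* and *Cldn23* were below 1 FPKM with intervals on both sides of 0.

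After the mean of each group was removed, the 9 genes varied together only in part. Over the 36 pairs, the median Pearson correlation of log2 CPM across the 12 libraries was 0.18, and 24 pairs had a positive value. *Cldn5*, *Cdh5*, *Mfsd2a* and *Slc2a1* formed 1 set of positive values, from 0.45 to 0.63, and *Ocln*, *Abcb1a* and *Tjp1* formed another, from 0.58 to 0.77. The strongest pair was *Ocln* with *Abcb1a* (r = 0.77, Spearman's rho = 0.67, and r = 0.63 without the 2 libraries farthest from the median of *Ocln*). *Cldn5* and *Cdh5* had r = 0.63 (rho = 0.58, and 0.67 without the 2 farthest). The other pairs of the first set were less stable: without the 2 farthest libraries *Cdh5* and *Mfsd2a* went from 0.62 to 0.30, *Cdh5* and *Slc2a1* from 0.58 to 0.27, and the other 3 pairs to between 0.32 and 0.37, while the pairs of *Tjp1* in the second set went to 0.44 and 0.53. *Cldn5* and *Tjp1* had the most negative value, -0.65. These values are a description of 12 libraries that share preparation and depth, and no test was made.

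For *Cldn5* and *Tjp1*, the level also moved with an index of transcript length across the libraries. The exonic length was 1416 bases for *Cldn5*, 2250 for *Mfsd2a*, 3506 for *Slc2a1*, 4203 for *Cdh5* and 4222 for *Ocln*. It was 4228 for *Cldn12*, 5480 for *Abcb1a*, 6228 for *Pecam1* and 7811 for *Tjp1*. The index was the level of long over short genes in each library with group means removed. Over the 12 libraries it had r = -0.76 with *Cldn5* (Spearman's rho = -0.80) and 0.85 with *Tjp1* (rho = 0.84). With *Abcb1a* r was 0.58 but rho only 0.38. In the first set above, *Slc2a1*, *Mfsd2a* and *Cdh5* had r of -0.39, -0.37 and -0.23, and in the second set *Ocln* had 0.38. The sets thus differed in the sign of r with the index, and the part of transcript length in them was not tested. *Cldn12* had r = 0.33 (rho = 0.43), and *Pecam1*, longer than *Abcb1a*, had r = 0.22. Before the group means were removed, the index was lowest in CON replicate 2 (-0.28), the CON library with the most *Cldn5* and the least *Tjp1*, and highest in CON replicate 4 (0.23), the CON library with the most *Tjp1* and the least *Cldn5*. With length and GC content corrected, the log2 fold change of *Cldn5* in GF relative to CON was -0.22 ± 0.08 (SE, adjusted p = 0.334, edgeR), that of *Cdh5* -0.20 ± 0.09 and that of *Tjp1* 0.01 ± 0.09.

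**Figure D4:**
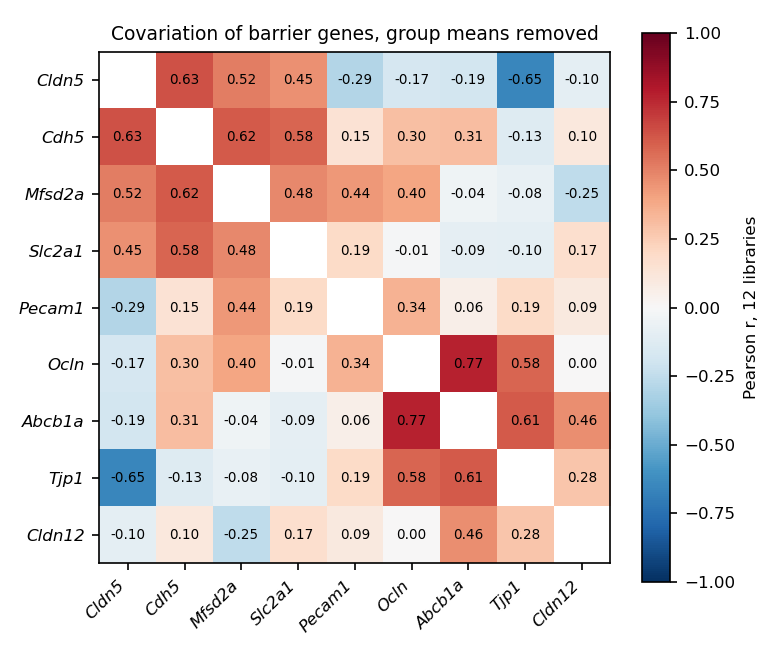
Pearson correlation (colour and printed value) between the barrier genes across 12 libraries, on log2 CPM with the mean of each group removed, genes on both axes. The upper left block of *Cldn5*, *Cdh5*, *Mfsd2a* and *Slc2a1* runs from 0.45 to 0.63, and the pair of *Cldn5* and *Tjp1* stands at -0.65.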

How the data were processed

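RNA from the PFC of 4 CON, 4 GF and 4 exGF pools was sequenced after polyA selection with a stranded kit. The authors trimmed the reads with Trimmomatic 0.32, aligned them with STAR to GRCm38.p3, counted pairs on Ensembl genes with HTSeq 0.6.0 without regard to strand, and deposited the raw counts. Versions are those of the submitters' processing notes. Pairs outside genes (4.57% to 7.31% of each library), on several genes (1.10% to 1.32%) or aligned to several places (13.0% to 19.2%) were left out of library sizes and tests.

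Each pair of groups was tested in R 4.3.3 with edgeR 4.0.16 (filterByExpr with default settings, TMM, quasi-likelihood test, Benjamini-Hochberg over all tested genes) with calls made below an adjusted p of 0.1 after the study's methods. The edgeR step was checked on simulated counts in which changed genes moved by 1 on the log2 scale. That is larger than any estimate of the barrier genes, so the check does not cover changes of their size. CPM used TMM library sizes and FPKM exon lengths of a GRCm38 annotation. Intervals are at 95%. Correlations used log2 CPM with a prior count of 1, over genes passing the filter in all 12 libraries (16032). The sum of endothelial markers and the index of long over short genes carry no test. Promoters came from RefSeq on GRCm38.p6.

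The tests were repeated with a block for the replicate number, with DESeq2 1.42.0 and limma-voom (limma 3.58.1), with size factors by RLE or the upper quartile, with the filter removed or replaced by a minimum of 10 counts per library, with the robust option of edgeR, with all 12 libraries in a single fit, at 0.05, and without each library in turn. Correlations were repeated with a prior count of 5. Added after seeing the data were a spline correction for length and GC content in the tests and leaving out each library in the correlations. Replicate numbers of CON and GF do not mark shared animals, and exGF columns carry none that could be matched.

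The 9 genes, the lists and the tests were chosen with earlier results of these data known. Genes named are the 9, 16 genes fixed by name from the lists, listed genes that were called, the claudins that passed the filter and the 3 genes most correlated with each of the 9. *Vwf*, *Slco1a4*, *Col4a2*, *Lama4*, *Hspg2* and the claudins without counts were named after their values were seen. Values of 2 of these genes are left out of the text.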

Additional observations from a re-analysis of the deposited data

Results flagged for a closer look

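*Cldn5* in exGF library GFR3 stood apart from the rest of its group. Its level was 42.4 CPM, while the other 3 exGF libraries lay between 35.8 and 36.9 CPM, and the gap to the nearest of them took up 0.831 of the range of the group, just above the 95% critical value of Dixon's test for 4 samples. Over the 9 genes and 3 groups, 27 groups of 4 libraries were examined and 1 was singled out, where chance alone singles out about 1 in 20. Without GFR3 the log2 fold change of *Cldn5* in exGF relative to GF mice was 0.15, against 0.21 with it.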

How the results depend on the processing

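Members of the barrier set were called under 1 setting only: with the length and GC correction 1 of the 9 genes (*Slc2a1*) was called in GF relative to CON, and under every other setting, and in the other comparisons under all settings, 0 of 9 were. The number of all genes called moved more. In GF relative to CON it was 39, and 221 with no filter, 198 by DESeq2, 122 with length and GC corrected and 27 to 60 with 1 library left out (60 without GF replicate 2). In exGF relative to CON it was 11, and 48 with no filter, 7 with at least 10 counts in every library, 60 by DESeq2, 17 with length and GC corrected and 8 to 14 with 1 library left out. In exGF relative to GF it was 0, and 32 with no filter, 21 by DESeq2, 2 in a single fit of 12 libraries, 1 with length and GC corrected and 0 to 7 with 1 library left out (7 without GFR1, 6 without GFR4 and 2 without GF replicate 4). The cause was not tested.

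The estimate of *Tjp1* in GF relative to CON changed sign, to -0.0013 with RLE, -0.0087 with upper-quartile normalization, -0.014 with no filter, -0.0082 with at least 10 counts and -0.0015 by DESeq2. With 1 library left out, log2 fold changes that changed sign ran from -0.10 to 0.10 for *Tjp1* and from -0.036 to 0.077 for *Mfsd2a* in GF relative to CON, from -0.056 to 0.18 for *Cldn12*, from -0.18 to 0.056 for *Cldn5* and from -0.050 to 0.14 for *Tjp1* in exGF relative to CON, and from -0.0057 to 0.15 for *Tjp1* in exGF relative to GF. None of these estimates was called. The median correlation among the 9 genes was 0.18, also with a prior count of 5, and 0.063 (without CON replicate 3) to 0.28 (without GFR3) with 1 library left out.

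With the replicate number as a block, 51 genes and 0 of the 9 were called in GF relative to CON. Same-numbered CON and GF libraries had correlations of their deviations between -0.05 and 0.03, and 0 of 4 CON libraries correlated best with its own number, so the numbers were not taken as pairs. With 4 pools a group, the width of the intervals limits what can be said of single genes: in GF relative to CON the interval of *Ocln* (-0.01 to 0.72) spans both no difference and a large one. Protein levels and the permeability of the barrier were not analysed here.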

Other observations

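For each barrier gene, the 3 genes most like it across the 12 libraries were found among 16032 genes, by the Pearson correlation of log2 CPM with the mean of each group removed. *Cldn5* was most like *Mrm2* (0.93), *Ap2s1* (0.92) and *Dapk3* (0.92), and *Tjp1* was most like *Hdac9* (0.98), *Prex2* (0.96) and *Pde5a* (0.96). *Slc2a1* was most like *Bmp7* (0.94), *Sdc4* (0.94) and *Nkain1* (0.92), *Mfsd2a* like *B3gnt5* (0.93), *Mettl25* (0.92) and *Nfkbia* (0.91), and *Abcb1a* like *Rragd* (0.99), *Prr16* (0.94) and *Atad2* (0.93). *Cdh5* was most like *Ccdc8* (0.93), *Cenpm* (0.90) and *Pabpc4l* (0.88), and *Pecam1* like *Kansl1l* (0.90), *Sh3tc1* (0.90) and *Tmprss7* (0.87). *Ocln* was most like *Kctd18* (0.92), *Rab22a* (0.90) and *4921504A21Rik* (0.88), and *Cldn12* like *Zfp943* (0.97), *Ugcg* (0.96) and *Twsg1* (0.96). None of these genes belongs to the barrier genes or the vascular lists. The highest of 16032 values over 12 libraries that share preparation and depth is a description, with no test.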
